A study of Homo sapiens and Mus musculus with 10 samples.

Results

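The 83 human potassium channel genes described here are the protein-coding genes of GENCODE release 44 whose symbol is KCN, 1 letter from A to V and digits, out of 19970 protein-coding genes on the autosomes and X. They comprise 30 pore subunits of voltage-gated channels (KCNA, KCNB, KCNC, KCND, KCNH and KCNQ), 10 silent or modifier voltage-gated subunits (KCNF, KCNG, KCNS and KCNV), 7 calcium- or sodium-activated channels (KCNN, KCNT and KCNU), 16 inward rectifiers (KCNJ), 15 two-pore domain channels (KCNK) and 5 accessory subunits (KCNE). Open chromatin was measured by bulk ATAC-seq, in which the Tn5 transposase cuts accessible DNA, in 4 human cell lines and in mouse embryonic stem cells (mESC), with 2 replicate libraries each. GM12878 is a lymphoblastoid B-cell line made with Epstein-Barr virus, HEK293T an embryonic kidney line carrying adenovirus and SV40 sequences, HFF1 a foreskin fibroblast line and K562 a chronic myeloid leukaemia line with erythroid features. No treatment or engineered allele was named for any group, each line stands for its cell type through a single line, and the mESC were grown without feeders in medium with leukaemia inhibitory factor. Whether the replicates of a line came from separate cultures was not stated, so the spread between them may be technical. Of the 83 genes, 80 had a mouse gene of the same name.

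Potassium channels let potassium ions leave or enter a cell along their gradient and set its resting voltage. Voltage-gated pores open on depolarisation, calcium-activated ones link voltage to calcium entry, inward rectifiers and two-pore channels carry much of the current at rest, and silent and accessory subunits change the behaviour of the pores they join. Most are known from nerve, heart, muscle and secretory tissue, while a few have known roles in lymphocytes, red cells, fibroblasts and tumour cells.

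The deposited lists held 52137 to 127359 peaks per human library and 138349 and 142194 in mESC. The local fragment level expected without enrichment, recovered from the deposited fold and p of the peaks, was lowest in HEK293T (0.465 and 0.466) and 1.71 to 2.43 in the other human lines. Peak names in GM12878 and mESC carried another prefix than those of HEK293T, HFF1 and K562, and GM12878 and that prefix cannot be told apart. Of 5 marker genes for each line, 5 had a promoter peak in both libraries of GM12878, HFF1 and mESC, 4 in HEK293T and 3 in K562. The lists hold intervals past a threshold and no read counts, and a promoter without one may still be open below that threshold.

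Potassium channel promoters were found in all 8 human libraries less often than other promoters, and in 1 to 3 lines more often. A promoter peak is a peak that overlaps 1 kb either side of any annotated start site, and a gene is counted as called in a line when both of its libraries have one. In GM12878, 47 of the 83 genes (56.6%) were called, against 71.9% of all protein-coding genes. HEK293T had 48 (57.8%, against 67.8%), HFF1 55 (66.3%, against 76.2%) and K562 45 (54.2%, against 70.4%). All 8 libraries had a promoter peak at 26 of the 83 genes (31.3%), against 59.7% of all genes. None had one at 13 (15.7%), close to the 14.7% of all genes. Between these ends, 42 genes (50.6%) were called in 1, 2 or 3 lines, against 23.2% of all genes. Of the 18 genes called in 3 lines, 8 were missing in K562, 4 each in GM12878 and HEK293T, and 2 in HFF1. Among all genes called in 3 lines, K562 was missing in 26.6%, GM12878 in 22.2%, HEK293T in 44.7% and HFF1 in 6.51%. Lists of equal length, and lists rescored at the lowest human background level, lowered the genes in all 8 libraries to 13 and 17, with 53.7% and 56.6% of all genes at the same settings.

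**Figure D1:**
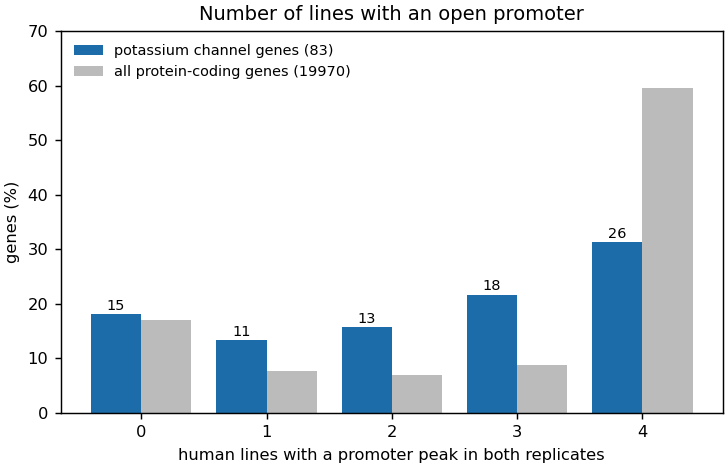
Percentage of genes (vertical axis) by the number of human lines with a promoter peak in both replicates (horizontal axis), for the 83 potassium channel genes (blue, number of genes above each bar) and all protein-coding genes (grey). The blue bar is lower than the grey one at 4 lines (31.3% against 59.7%) and higher at 1, 2 and 3 lines.

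Where a potassium channel promoter had a peak, it was usually weak for its library. The fold of a peak is the value given by the authors' peak caller, enrichment over the local background. Because that background differed between libraries, folds are given for each library, and the lines are not ordered by them. The strongest peak of a gene can also lie at different annotated starts in different libraries. The strongest promoter peak of the median member stood at percentile 18.9 to 31.1 among all genes with a promoter peak in the 8 human libraries, and at 27.6 and 30.7 in mESC. In the human libraries the median member with a promoter peak had 399 to 595.5 bp of its windows covered, against 651 to 1065 bp for all genes. In mESC it had 1190 and 1083 bp covered, against 1035.5 and 1019 bp. Summits lay near annotated starts, with a median distance of 113.5 to 210 bp per human library. Members had a median of 4 annotated start sites, against 5 for all genes.

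CpG-rich potassium channel promoters were called in all 4 lines less often than other CpG-rich promoters. Most vertebrate promoters lie in CpG islands, stretches that kept their CpG dinucleotides and are often open in many tissues. Within 500 bp of the canonical start, 54 of the 83 genes (65.1%) had an observed over expected CpG of at least 0.6, like all genes (66.3%). Of these 54, 19 (35.2%) were called in all 4 human lines, against 79.1% of all genes of that CpG content, while 31 (57.4%) were called in 1 to 3 lines, against 17.6%. Below 0.3 the members did not lie under all genes (3 of 15, 20.0%, against 13.2%). Upstream stretches of 3 members show the range, with every CpG in capitals. They are the CpG-richest member with a peak in at most 1 human library but both mESC libraries, the CpG-richest with a peak in all 8, and the CpG-poorest with none, among the 61 members in the RefSeq promoter table (GRCh38.p14) and leaving out those with annotated untranslated or coding sequence there. KCNK13, a two-pore channel, had an observed over expected CpG of 0.896, KCNS3, a silent voltage-gated subunit, 0.891, and KCNA10, a voltage-gated pore, 0.178.
KCNK13, chr14:90061744-90061943, plus strand: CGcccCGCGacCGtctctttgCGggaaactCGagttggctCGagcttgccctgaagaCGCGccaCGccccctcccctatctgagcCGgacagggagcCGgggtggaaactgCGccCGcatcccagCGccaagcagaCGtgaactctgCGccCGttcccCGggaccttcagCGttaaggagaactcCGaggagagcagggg
KCNS3, chr2:17878417-17878616, plus strand: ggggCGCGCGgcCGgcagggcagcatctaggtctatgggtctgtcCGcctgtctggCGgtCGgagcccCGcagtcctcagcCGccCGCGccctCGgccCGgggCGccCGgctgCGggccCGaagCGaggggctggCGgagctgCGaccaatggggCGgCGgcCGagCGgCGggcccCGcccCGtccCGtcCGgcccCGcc
KCNA10, chr1:110519226-110519425, minus strand: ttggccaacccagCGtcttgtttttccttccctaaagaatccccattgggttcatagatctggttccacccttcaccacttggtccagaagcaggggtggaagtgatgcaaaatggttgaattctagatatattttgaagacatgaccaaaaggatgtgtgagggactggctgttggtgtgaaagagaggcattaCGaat
The KCNK13 stretch has 21 CpG and the KCNS3 stretch 30, against 2 in that of KCNA10. KCNK13 nevertheless had a promoter peak in a single human library, HFF1 replicate 2, with a fold of 2.64, whereas KCNS3 had one in all 8.

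**Figure D2:**
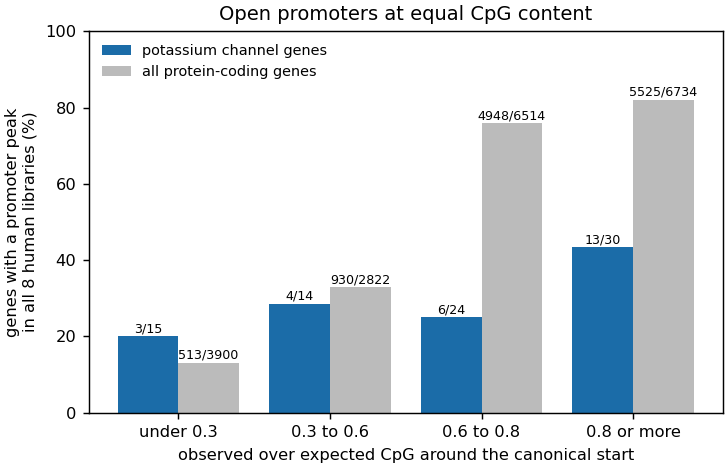
Percentage of genes with a promoter peak in all 8 human libraries (vertical axis) by observed over expected CpG around the canonical start (horizontal axis), for the potassium channel genes (blue) and all protein-coding genes (grey), with gene numbers above the bars. The bars are close below 0.6 and far apart above it, at 25% against 76.0% and 43.3% against 82.0%.

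Of the voltage-gated pores, the largest class, 23 of 30 were called in GM12878, 21 in HEK293T, 21 in HFF1 and 20 in K562, and 11 in all 4. Over all genes the shares were 71.9%, 67.8%, 76.2% and 70.4%, and 59.7% in all 4. KCNH1 (ENSG00000143473, chromosome 1, 210676823 to 211134165), the ether-a-go-go channel found in many tumours, had the highest mean fold of the genes with a peak in all 8 libraries. Its fold was 15.6 and 14.3 in GM12878, 18.5 and 17.5 in HEK293T, 12.3 and 13.3 in HFF1 and 14.3 and 13.3 in K562. KCNH6, an ERG-type channel, also had a peak in all 8, with a mean fold over the libraries of 11.1. KCNH2, the ERG channel that repolarises the heart, had folds of 5.87 and 7.18 in GM12878, 8.73 and 7.71 in HEK293T, 5.75 and 4.55 in HFF1 and 5.83 and 6.23 in K562. Its covered bases were higher in both K562 libraries, at 1920 and 1815 bp, than in any other human library (331 to 719 bp), without passing the test described below (exact permutation, adjusted p = 0.117). With windows of 500 bp KCNH2 was called in K562 alone, and in equal-length or rescored lists it was not called in HFF1.

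KCNA3, the voltage-gated channel of lymphocytes, was called in 3 lines. Its folds were 6.26 and 7.57 in GM12878, 7.50 and 8.20 in HEK293T and 4.68 and 5.91 in HFF1, and neither K562 library had a peak. With lists of the 50000 best peaks per library KCNA3 was called in HEK293T alone, and after rescoring at the lowest human background in GM12878 and HEK293T. KCNA4, an A-type channel, was called in HEK293T (12.7 and 15.4) and K562 (9.07 and 6.37) and had no peak in GM12878 or HFF1. KCNQ1, the heart and epithelial channel that joins KCNE1, was called in GM12878 (3.91 and 4.01) and K562 (8.93 and 7.56), with a peak in 1 library each of HEK293T (5.68) and HFF1 (4.34). The windows of KCNQ1 also hold a start site of TRPM5, and the number of lines in which it was called ranged from 1 to 3 over the alternatives.

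**Figure D3:**
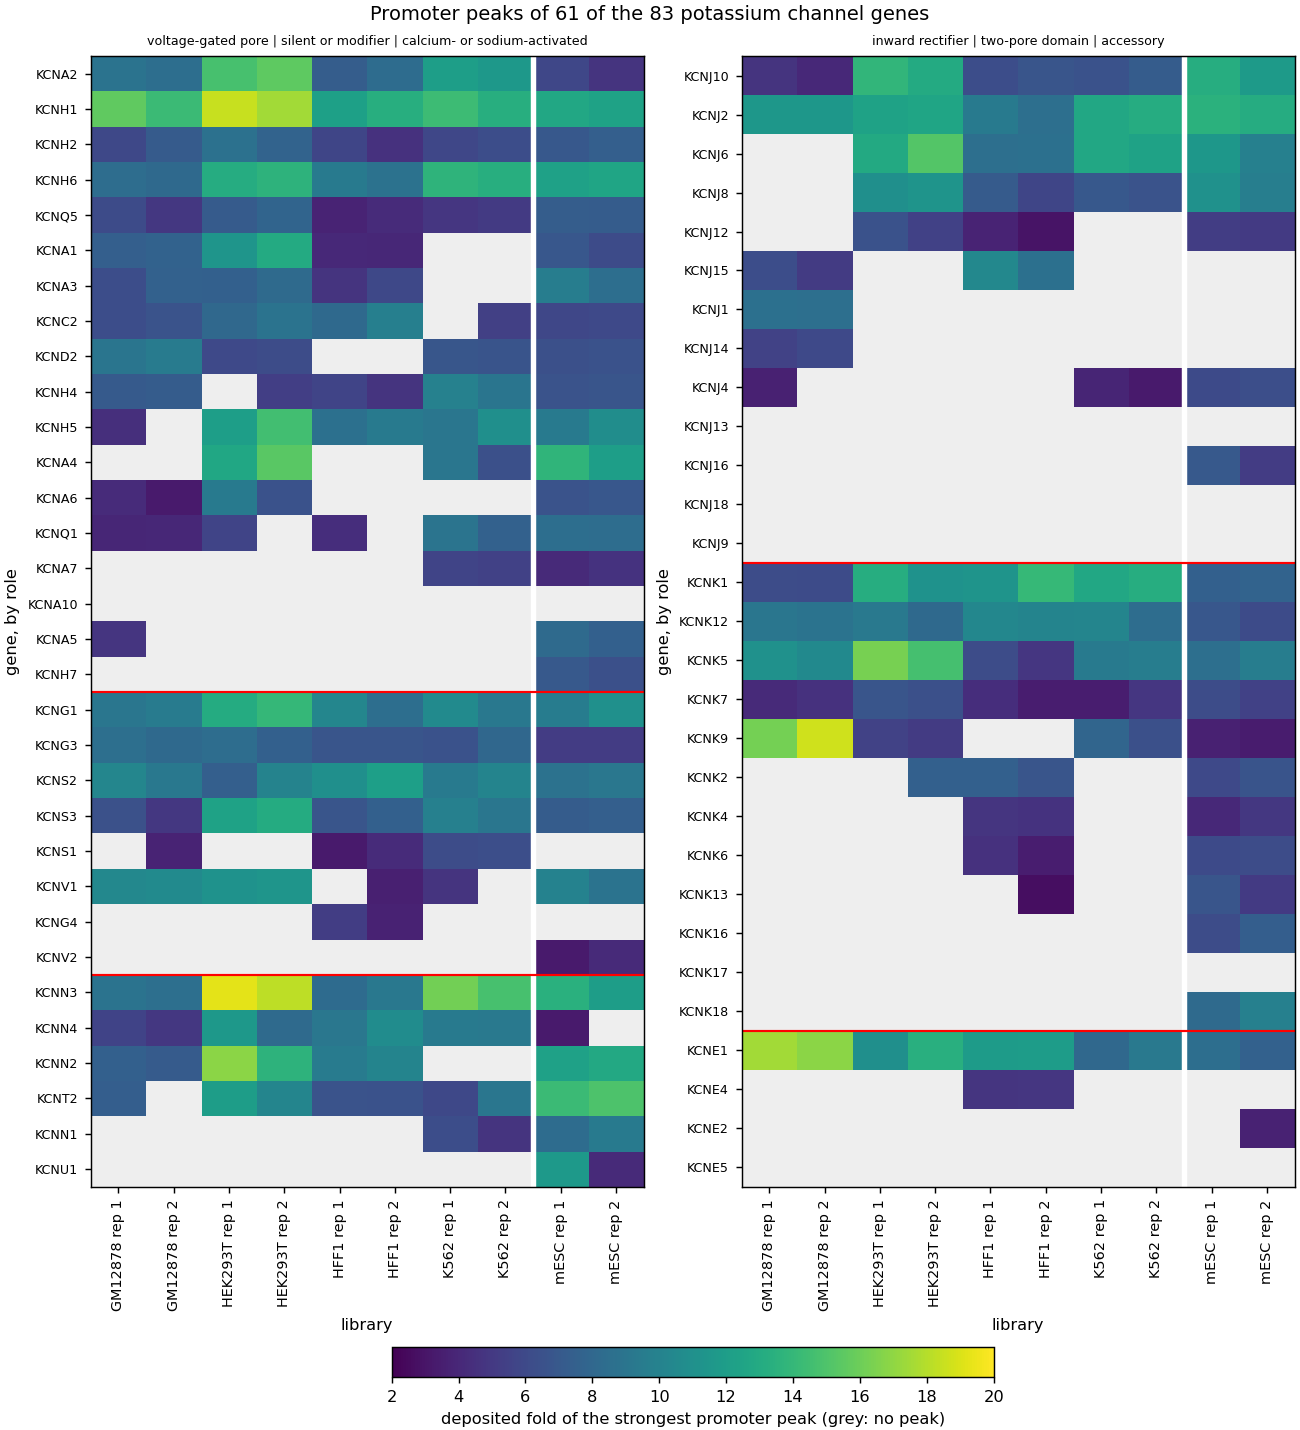
Deposited fold of the strongest promoter peak (colour, grey for no peak) for the 61 genes described here (rows, by role, red lines between roles) in the 8 human and 2 mESC libraries (columns). Replicates of a line mostly share peaks, many rows are filled in some lines only, and 6 of the 13 genes without a peak in any human library have one in both mESC libraries.

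Among the silent and modifier subunits 4 of 10 were called in all 4 lines, against 59.7% of all genes. They were KCNG1, KCNG3, KCNS2 and KCNS3. The windows of KCNG3 also hold a start site of MTA3. In both GM12878 libraries and in HFF1 replicate 2 the summit lay more than 1 kb upstream of the KCNG3 start. KCNV1, a silent subunit of brain, had folds of 10.4 and 10.6 in GM12878 and 11.2 and 11.4 in HEK293T. It had a peak in 1 HFF1 library (3.59) and 1 K562 library (4.68). The KCNV1 summits lay 1193 to 1443 bp downstream of the canonical start. Of the calcium- and sodium-activated channels, KCNN3, a small-conductance calcium-activated channel, was among the strongest members, at 19.2 and 18.2 in HEK293T, 16.2 and 14.7 in K562, 8.87 and 8.54 in GM12878 and 8.27 and 9.19 in HFF1. KCNN2, its close relative, had folds of 7.49 and 7.20 in GM12878, 16.9 and 13.6 in HEK293T and 9.49 and 10.1 in HFF1, and none in K562. For both genes these peaks lay at different starts. The KCNN3 summit was 2998 and 2976 bp from the canonical start in HFF1 and −84 to −131 bp in the other lines. That of KCNN2 was 72571 and −50 bp from it in GM12878, −306586 and −306615 in HEK293T and −306625 and −306619 in HFF1.

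Of the inward rectifiers 3 of 16 were called in all 4 lines, against 59.7% of all genes. KCNJ2, the rectifier that stabilises the resting voltage of muscle, had a peak in all 8 libraries with folds of 8.60 to 13.1. KCNJ8, a pore of ATP-sensitive channels, had folds of 10.9 and 11.3 in HEK293T, 7.17 and 5.76 in HFF1 and 6.94 and 6.58 in K562, and no peak in GM12878. KCNJ12 and KCNJ18 are near-identical copies, so read placement at both is uncertain. Two-pore channels had 5 of 15 in all 4 lines, against 59.7% of all genes. Among these were KCNK1, a leak channel, with folds of 6.09 to 14.1, and KCNK5, an acid- and volume-sensitive channel of kidney and T cells, with 4.84 to 16.3. KCNK7 was another, and its mean fold of 4.73 was the lowest of the 26. The KCNK1 summit lay 101 and 92 bp downstream of the canonical start in GM12878 and 21933 to 22208 bp downstream in the other lines. In equal-length or rescored lists KCNK5 was not called in HFF1. KCNK9, an acid-sensitive leak channel, had folds of 16.2 and 18.7 in GM12878, 5.58 and 5.13 in HEK293T and 7.88 and 6.40 in K562, and none in HFF1. KCNK2, a mechanosensitive leak channel, was called in HFF1 (7.54 and 6.77) with a peak in 1 HEK293T library (7.54). In HFF1 its windows were covered over 2835 and 1921 bp, against 264 bp in that HEK293T library. Among accessory subunits KCNE1, the partner of KCNQ1, had a peak in all 8 libraries, with folds of 17.5 and 16.9 in GM12878.

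A promoter peak in both libraries of 1 human line and in no library of the others was found at 8 genes. GM12878 had 2 of them (2.41% of the 83, against 1.4% of all genes), HFF1 4 (4.82%, against 2.05%), K562 2 (2.41%, against 1.12%) and HEK293T 0 (against 0.336%). These counts are too small to be read as differing from the shares of all genes. In GM12878 they were KCNJ1, the potassium-secreting rectifier of the kidney tubule (8.62 ± 0.0562, mean fold ± SD, n = 2 here and below), and KCNJ14, a rectifier of neurons (5.77 ± 0.296). In HFF1 they were KCNE4, an accessory subunit (4.79 ± 0.0713), KCNK4, a mechanosensitive two-pore channel (4.72 ± 0.129), KCNG4, a modifier subunit (4.51 ± 1.09), and KCNK6, a two-pore channel (3.98 ± 0.796). In K562 they were KCNA7, a voltage-gated pore (5.58 ± 0.123), and KCNN1, a small-conductance calcium-activated channel (5.50 ± 1.09). The KCNJ1 summit lay 799 and 800 bp from the nearest start and 25561 bp downstream of the canonical one in replicate 1, and the KCNJ14 gene overlaps GRWD1. The 101 bases around the KCNJ1 summit of replicate 1 (hg38, plus strand) are shown because they hold the RUNX motif TGTGGTT on the minus strand, in capitals. RUNX factors are regulators of blood cells, and a motif match is no evidence of binding.
KCNJ1 promoter peak of GM12878, chr11:128841685-128841785: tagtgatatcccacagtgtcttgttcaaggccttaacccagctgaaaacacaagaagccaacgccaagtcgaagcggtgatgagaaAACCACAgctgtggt
These sets depend on the settings. With lists of the 50000 best peaks per library 7 of the 8 were lost and KCNA7 was kept. KCNJ1 and KCNA7 were lost with 500 bp windows, KCNJ1 and KCNK4 with the canonical start alone, KCNG4 at a −log10 q of at least 5, and KCNG4, KCNN1 and KCNK6 on rescoring at the lowest human background level. With 2 kb windows KCNJ14 was also called in K562.

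Differences between the lines were tested on the bases of the promoter windows covered by peaks. For each gene, eta squared, the fraction of the variance that lies between lines, was set against its values over all 105 ways to cut the 8 libraries into 4 pairs, and p-values were adjusted over all 16634 genes tested. A single pair of lines cannot be tested, since 2 libraries against 2 give a p of 0.333 at best. Of the 68 members tested, 4 had an adjusted p under 0.05, KCNN4, KCNT2, KCNJ6 and KCNH5, which is 5.88% against 23.9% of all genes, and 32 had an unadjusted p under 0.05, against 60.4% of all genes. These genes are named because they passed. Each had the smallest p the design allows (exact permutation, one-sided, p = 0.00952, adjusted p = 0.0399). The median eta squared of the 68 members, 0.930, was close to the 0.937 of all genes tested. Lines without a peak tie, which bounds p from below. With peaks in 1 line alone p cannot go under 0.143 (exact permutation), as at KCNE4 (eta squared 0.994). With 2 lines alone it cannot go under 0.0286 (exact permutation, adjusted p = 0.0554), as at KCNF1 (0.999). Members were called in 1 and in 2 lines more often (13.3% and 15.7%, against 7.62% and 6.85%). The share that passed therefore does not show that members differ less. With coverage taken as a share of all bases covered in the library, 36 members passed, with 59.2% of all genes.

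KCNN4, the calcium-activated channel of red cells, lymphocytes and fibroblasts (ENSG00000104783, chromosome 19, 43766533 to 43780976), had 1002 and 865 bp covered in GM12878, 262 and 201 in HEK293T, 523 and 773 in HFF1 and 1255 and 1246 in K562. K562 was highest and HEK293T lowest, and no 2 lines overlapped. The strongest KCNN4 summit lay −19 and −27 bp from the canonical start in GM12878 and 6268 to 6408 bp downstream of it in the other lines. KCNJ6, a G-protein-gated rectifier of neurons (chromosome 21, 37607373 to 38121345), had 0 bp in both GM12878 libraries, 773 and 752 in HEK293T, 247 and 435 in HFF1 and 1235 and 1291 in K562. These 4 lines did not overlap either. The strongest KCNJ6 summit lay −17 and −20 bp from the canonical start in HEK293T and −17 and 11 bp in HFF1. In K562 it lay −204961 and −204952 bp from it, at another annotated start, so the lines are not compared at a single promoter. The windows of KCNJ6 also hold start sites of DSCR4 and DSCR8. KCNT2, a sodium-activated channel, had 210 and 0 bp in GM12878, 1080 and 1104 in HEK293T, 1228 and 1190 in HFF1 and 957 and 462 in K562. KCNH5, an ether-a-go-go channel of brain, had 164 and 0 bp in GM12878, 854 and 852 in HEK293T, 877 and 893 in HFF1 and 1184 and 997 in K562. In 3 of the 4 genes GM12878, the line with the other peak-name prefix, was the lowest line. Without GM12878 there are 15 ways and the smallest p is 0.0667, so no call can be made. None of the 4 passed when either GM12878 or either K562 library was left out. No gene of the whole table passed at those settings either, so this is not particular to the 4. KCNT2 and KCNH5 also fell short without any single HEK293T or HFF1 library, and KCNN4 without HEK293T replicate 2 or HFF1 replicate 1. With the canonical start alone KCNN4 was called in 1 line.

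In mESC 69 of the 80 mouse genes of the same name (86.3%) had a promoter peak in both libraries. This is above the 73.1% of all mouse protein-coding genes but not above the 88.0% of mouse genes that share their name with any human protein-coding gene. All 52 members with a CpG-rich human promoter and a mouse gene were called in mESC (98.9% among all such genes), and 17 of the 28 others (59.5% among all such genes). By the number of human lines called, the mouse gene was called for 8 of 12 genes at 0 lines, 7 of 11 at 1, 11 of 13 at 2, 18 of 18 at 3 and 25 of 26 at 4. Among all genes the shares were 42.7%, 66.0%, 81.6%, 92.4% and 98.0%. The 8 genes called in no human line but in mESC were KCNA5, KCNH7, KCNJ16, KCNK13, KCNK16, KCNK18, KCNU1 and KCNV2.

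Among them Kcnk18, a two-pore channel of sensory neurons, had mESC folds of 8.19 and 9.85, Kcna5, a channel of atrium and vessels, 8.22 and 7.50, and Kcnh7, an ERG-type channel of brain, 7.01 and 6.37. Kcnk16, known from pancreatic islets, had 6.21 and 7.41, and Kcnj16, the partner of KCNJ10, 7.03 and 5.22. Kcnu1, the sperm channel, had 11.7 and 4.14, further apart than its companions, and Kcnv2, a silent subunit of photoreceptors, 3.33 and 4.15. In the other direction 7 genes were called in at least 1 human line and not in mESC: KCNE4, KCNG4, KCNJ1, KCNJ14, KCNJ15, KCNN4 and KCNS1. Kcnn4 had a peak in 1 mESC library (3.32). Of the 13 genes without a peak in any human library, KCNE2, KCNJ9, KCNJ13 and KCNA10 were not called in mESC either, and KCNE5, KCNJ18 and KCNK17 had no mouse gene of the same name.

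Peaks inside the genes differed between lines about as often as in other genes. A gene-body peak overlaps the gene and none of its promoter windows. The members held 257 and 257 such peaks in GM12878, 125 and 108 in HEK293T, 315 and 279 in HFF1, 193 and 155 in K562 and 306 and 291 in mESC. Among the human lines HEK293T had both the shortest lists and the fewest such peaks, and HFF1 the longest and the most. Per base of gene body this was 0.745 to 1.03 times the density of all genes in the human libraries, and 0.676 and 0.729 times in mESC. Of 48 members with at least 8 gene-body peaks in all, 33 (68.8%) passed the same test on covered bases, against 70.7% of the 8666 genes tested. The peaks merged into 447 called regions, of which 73.4% were called in 1 line (74.3% for all genes) and 6.71% in all 4 (6.13%).

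**Figure D4:**
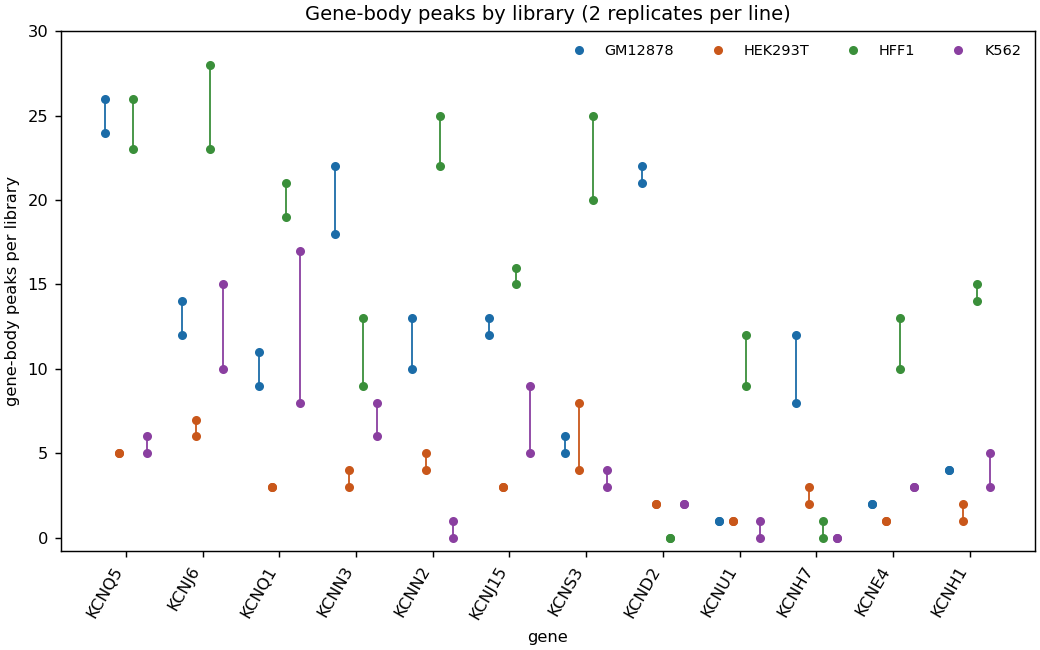
Gene-body peaks per library (vertical axis, 1 point per replicate, a line joining both) in the 4 human lines for 7 of the 8 genes with most such peaks and the 5 with the largest share in 1 line among members with at least 20. HFF1 is high at KCNS3, KCNN2 and KCNU1, GM12878 at KCND2 and KCNH7.

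Single genes had strongly line-biased bodies. KCND2, the pore of the A-type current of neurons (chromosome 7, 120273175 to 120750337), held 21 and 22 peaks in GM12878, 2 and 2 in HEK293T, 0 and 0 in HFF1 and 2 and 2 in K562, so 84.3% of them were in GM12878. Its 18 called regions ran from 26.2 to 452 kb downstream of the start, and 15 were found in GM12878 alone. Covered bases differed between the lines (exact permutation, adjusted p = 0.0249), although the KCND2 promoter was called in 3 lines. KCNQ5, a pore of the M-current that damps firing (chromosome 6, 72621792 to 73198853), had the most gene-body peaks, 120 in all. It held 26 and 24 in GM12878, 5 and 5 in HEK293T, 26 and 23 in HFF1 and 6 and 5 in K562. GM12878 and HFF1 had like numbers but partly different places: of 38 called regions 13 were in GM12878 alone, 14 in HFF1 alone and 2 in all 4 lines. The total of covered bases differed between the lines (exact permutation, adjusted p = 0.0249), and the difference in places was not tested.

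HFF1 was the highest line at several genes. KCNS3 (chromosome 2, 17877847 to 18361616) had 25 and 20 gene-body peaks in HFF1, 5 and 6 in GM12878, 8 and 4 in HEK293T and 3 and 4 in K562. Of its 20 called regions 13 were in HFF1 alone. Its covered bases differed between the lines (exact permutation, adjusted p = 0.0404). Without either GM12878 or either K562 library KCNS3 fell short of the threshold (exact permutation, adjusted p of 0.0637 to 0.0742). KCNN2 had 22 and 25 in HFF1, 10 and 13 in GM12878, 4 and 5 in HEK293T and 1 and 0 in K562, the line without a KCNN2 promoter peak (exact permutation, adjusted p = 0.0249). KCNE4 and KCNU1 had 65.7% and 80.8% of their gene-body peaks in HFF1. KCNU1 did so without a promoter peak in any human library, and it fell short of the threshold (exact permutation, adjusted p = 0.0510), which it passed without K562 replicate 1 (0.0292). KCNH1 had 15 and 14 peaks in HFF1 and 1 to 5 in each other library.

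KCNH7, also without a human promoter peak, had 12 and 8 gene-body peaks in GM12878, 3 and 2 in HEK293T, 0 and 1 in HFF1 and none in K562 (exact permutation, adjusted p = 0.0404). Without HEK293T replicate 1 or either K562 library KCNH7 fell short (exact permutation, adjusted p of 0.0637 to 0.0761). KCNK17, a two-pore channel of pancreas, held 24 in all, KCNV2 12 and KCNJ9 10, each without a promoter peak in any human library. Spread over more lines were KCNJ6 with 115 in all, KCNQ1 with 91, KCNN3 with 83 and KCNJ15, an inward rectifier of kidney, with 76. These 4 passed the test (exact permutation, adjusted p of 0.0249 to 0.0404). KCNQ1 fell short without either GM12878 library (exact permutation, adjusted p = 0.0563 in each case) or without HFF1 replicate 1 (0.0715).

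**Figure D5:**
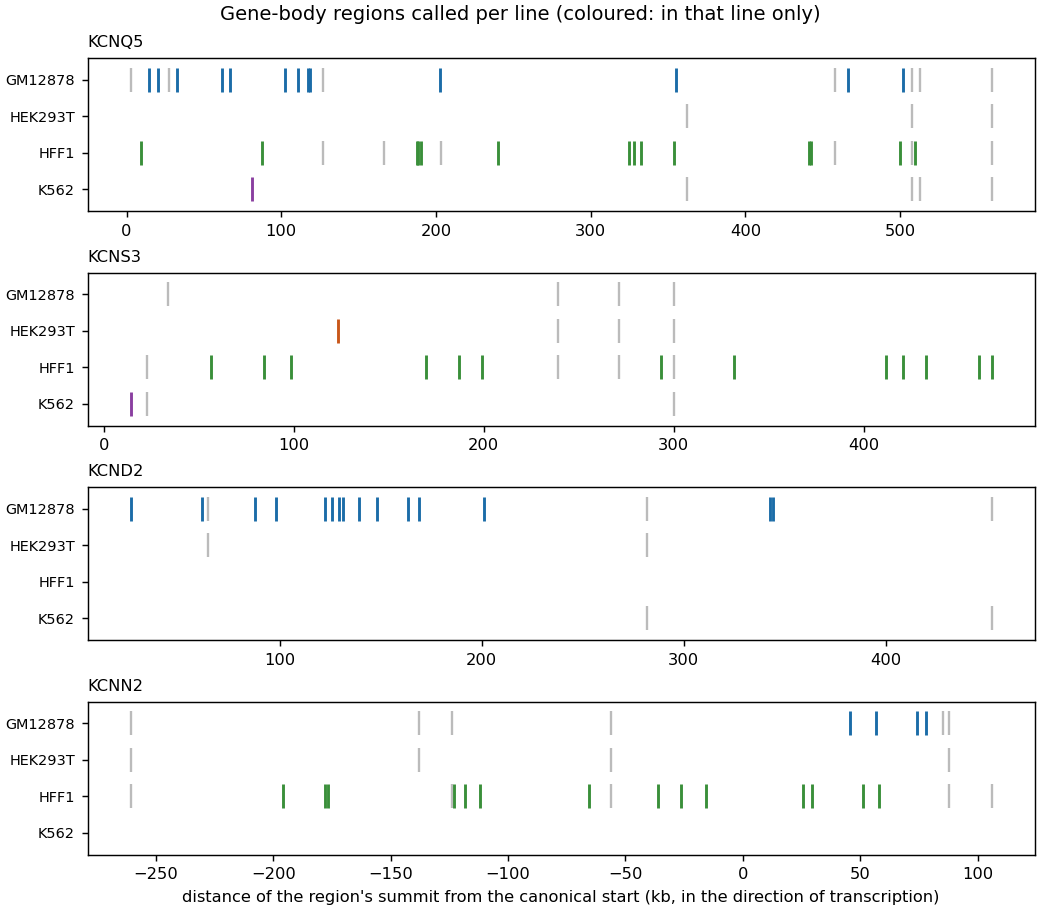
Called gene-body regions of KCNQ5, KCNS3, KCND2 and KCNN2, by distance of the summit from the canonical start in kb (horizontal axis, negative upstream within the annotated gene) and line (vertical axis). Coloured ticks are regions of that line alone, 15 of the 18 at KCND2 in GM12878 and 13 of the 20 at KCNS3 in HFF1, and grey ticks are shared.

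The strongest line-only regions were read in the reference, taking for each line the 2 of highest mean fold outside exons, 1 per gene. Both strands were searched for TGANTCA as the motif of AP-1, for AGATAAG as that of the GATA factors, for TGTGGTT as that of RUNX, and for the CTCF core and the RE1 element of REST. None of the first 3 contains another. Of these 8 regions 4 held a match within 50 bp of the summit, and these are shown (hg38, plus strand) with the match in capitals. AP-1 is abundant in fibroblasts, GATA factors drive erythroid genes and RUNX factors act in lymphocytes.
KCNQ5, GM12878, chr6:72724698-72724798, RUNX: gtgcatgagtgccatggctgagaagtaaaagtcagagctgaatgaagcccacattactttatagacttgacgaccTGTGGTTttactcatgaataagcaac
KCNC2, HFF1, chr12:75178122-75178222, AP-1: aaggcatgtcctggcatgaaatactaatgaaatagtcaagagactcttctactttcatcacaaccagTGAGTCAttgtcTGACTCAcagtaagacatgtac
KCNH1, HFF1, chr1:210792856-210792956, AP-1: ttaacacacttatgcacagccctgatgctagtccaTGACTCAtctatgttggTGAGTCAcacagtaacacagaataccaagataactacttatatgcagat
KCNG3, K562, chr2:42464763-42464863, GATA: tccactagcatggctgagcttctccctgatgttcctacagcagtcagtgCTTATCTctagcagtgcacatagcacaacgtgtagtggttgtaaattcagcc
The KCNQ5 region had folds of 17.6 and 15.8 in GM12878, and that of KCNC2, a fast channel of interneurons, 16.4 and 15.0 in HFF1. The KCNH1 region had 14.8 and 11.3 in HFF1, and that of the modifier subunit KCNG3 12.3 and 12.6 in K562. The regions at KCNH7 in GM12878 (16.1 and 17.4), KCNJ16 in K562 (13.7 and 13.2), KCNJ4 (9.55 and 8.99) and KCNH5 (6.92 and 7.28) in HEK293T held none of these letters in that window.

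Over all gene-body peaks without a peak of another human line, members carried the AP-1, GATA and RUNX motifs mostly at shares like those of all genes. Within 100 bp of the summit AP-1 was present in 24.4% and 27.3% of 209 and 183 HFF1 peaks (all genes 29.1% and 29.6%). GATA was present in 15.5% and 25.5% of 71 and 55 K562 peaks (all genes 15.5% and 16.1%), and RUNX in 10.4% and 10.5% of 125 and 133 GM12878 peaks (all genes 11.3% and 11.1%). The 95% Wilson interval of the higher K562 share was 15.8% to 38.3%, which covers counting error only. RE1 was present in 1 or 2 such member peaks per library of GM12878, HFF1 and K562 (0.478% to 1.82%, all genes 0.208% to 0.274%) and 0 in HEK293T. The CTCF core was present in 0 to 2 per library. Both counts are too small to be read. In the window of 1 kb either side of the canonical start, 17 of 83 members had the AP-1 motif (20.5%, against 32.5% of all genes), 15 GATA (18.1%, against 16.3%) and 18 RUNX (21.7%, against 21.7%). An RE1 match with up to 1 mismatch was found at KCNH4, KCNH6, KCNJ16 and KCNK12 (4.82%, against 2.08%), and a CTCF core match at KCND2, KCNJ18 and KCNK16 (3.61%, against 1.44%).

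Some neighbouring members were called in different lines. Of 11 adjacent pairs within 200 kb of each other, each of the same class of channel, 10 differed in the lines in which they were called, and KCNK16 and KCNK17 were called in none. In 5 of the 10, 1 gene was called in all 4 lines and its neighbour in none. The share among neighbouring genes in general was not computed, and nothing is read from the count. On chromosome 12, KCNA6 was called in GM12878 and HEK293T, KCNA1 in those lines and HFF1, and KCNA5 in none. On chromosome 1, KCNA10 was called in none, KCNA2 in all 4 and KCNA3 in 3. KCNJ16 and KCNE2, which had no human promoter peak, lay 33.1 and 75.3 kb from KCNJ2 and KCNE1, which had one in all 8 libraries. KCNJ6 and KCNJ15 on chromosome 21 were called in HEK293T, HFF1 and K562 and in GM12878 and HFF1. HFF1 was the only line they shared.

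Other ion channel genes had mixed counts in these small lists. Of 13 potassium channel genes outside the naming rule (KCNMA, KCNMB, KCNAB, KCNIP and KCNRG), 6 had a promoter peak in all 8 human libraries, against 5 of 9 sodium channel and 2 of 10 calcium channel pore subunits. The lists share no gene with the 83 and are too short to place the 31.3% of the members apart from them.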

How the data were processed

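Bulk ATAC-seq peak lists of 10 libraries from 5 lines were used. Per the labels, tagmented nuclei were stained and sorted, and libraries were amplified and size selected. The submitters' processing notes name cutadapt 3.2, Bowtie2 2.4.2, Picard and MACS2 2.2.7.1 with builds hg38 and mm10, and the calling parameters are not given in the sources used here. Each deposited list has 10 columns, with the authors' fold ratio, −log10 p and −log10 q of every peak, and a deposited score that was not used. No read counts or depths are given, so precision is limited by 2 libraries per line.

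Peaks on autosomes and X were joined to GENCODE release 44 (human) and M21 (mouse) protein-coding genes with Python 3.11.15, NumPy 2.4.6 and pandas 2.3.3. Lines were compared by the exact one-sided permutation of covered bases over all 105 pairings, with Benjamini-Hochberg adjustment over all genes tested: promoters covered in at least 2 libraries, or bodies with at least 8 peaks summed. The fragment pileup was recovered from fold and p for rescoring at the lowest human background. The test and the recovery were checked on simulated data. Promoter sequences are RefSeq's (GRCh38.p14) and matched 61 of 83 members, and other sequences come from hg38. Motif windows reach 100 bp either side of a summit.

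Genes named with values were the line-only members, the strongest and weakest of those in all 8 libraries, members without a human promoter peak, those with most or most line-biased gene-body peaks, a list with known roles in blood cells, fibroblasts or leukaemia lines, and those whose human and mouse calls differ. KCNA4, KCNJ8, KCNK9 and KCNV1 and the neighbouring pairs were named after their values were seen. Some items that this rule would name are not reported here. The members and lists were chosen with earlier results of these data known.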

Additional observations from a re-analysis of the deposited data

How the results depend on the processing

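Over the values that answer a comparison, 111 results under alternatives stayed within 1.5 times of the reported value and 22 did not. Percentages in brackets here are the shares of all genes at the same setting. With lists of the 50000 best peaks per library, promoter peaks were called at 28 members in GM12878 (63.4%) and 26 in HFF1 (65.0%). All 8 libraries then shared 13 (53.7%), and 18 of 35 members tested passed the gene-body test (62.4%). Gene-body peaks then averaged 112 in GM12878, 93 in HFF1, 111.5 in K562 and 91.5 in mESC. After rescoring at the lowest human background, all 8 libraries shared 17 (56.6%), the promoter test passed 7 of 63 (21.1%), and gene-body peaks averaged 159 in HFF1 and 101 in K562. The promoter test passed 10 of 73 members with 2 kb windows (25.1%) and 36 of 68 with relative coverage (59.2%), and the gene-body test 17 of 67 without its filter (24.4%). Leaving out each library in turn gave 0 to 4 members by the promoter test (0 without either GM12878 or either K562 library, 2 without HEK293T replicate 2) and 22 to 28 by the gene-body test. Without either GM12878 or either K562 library no gene of the whole table passed the promoter test. The cause of these shifts was not tested.

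The difference between replicates 1 and 2 correlated between lines at −0.0167 to 0.0152 over the 11916 genes with a promoter peak in all 8 human libraries. These genes showed no shared replicate difference. Whether libraries of the same number were handled together cannot be told from them. The replicate block leaves 24 ways, and with it no gene of the whole table passed, so its outcome is not one about the members. By the exact permutation test 0 members passed for promoters (11 at an unadjusted p under 0.05, smallest adjusted p of any gene 0.123). For gene bodies 0 passed (17 unadjusted, smallest adjusted p of any gene 0.0864). Of the single genes named, the line-only promoters of KCNE4, KCNN1, KCNJ1, KCNJ14, KCNG4, KCNK4 and KCNK6 were lost with 50000 peaks per library, and KCNA7 was kept.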
